A study of Mus musculus with 12 samples.

Results

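The 10 genes described here, Ttr, Enpp2, Folr1, Kl, Clic6, Kcnj13, Otx2, Prlr, Sostdc1 and Kcne2, mark the epithelium of the choroid plexus. They were chosen by symbol, with earlier results of these data known. They are 10 of 27588 genes that could be matched between the gene annotations of the files, and all 10 were among the 13945 genes with enough counts to be tested. The values come from bulk RNA sequencing of 12 mouse libraries labelled as monocytes of the meninges, in 4 groups of 3. All mice were male C57BL/6J. The unstressed group had no restraint, and its labels do not say whether vehicle was given. The other groups went through 18 days of chronic restraint, then received vehicle, psilocybin (the precursor of psilocin, a serotonin receptor agonist) or MDMA (an amphetamine derivative that releases serotonin), and tissue was collected 24 hours later. Nothing in the labels gives a dose, or ties each library to an animal of its own, so the p-values below measure only the spread between libraries, which may be technical.

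The choroid plexus is a fold of vascular tissue that hangs into the brain ventricles. Its single layer of epithelial cells secretes cerebrospinal fluid by moving ions and water, carries vitamins and hormones from blood into that fluid, and forms the barrier between them. Its cells bear tight junctions and tufts of cilia. The 10 genes cover these tasks: secreted proteins (Ttr, Enpp2, Sostdc1), receptors and uptake proteins (Folr1, Kl, Prlr), channels and their subunits (Kcnj13, Kcne2, Clic6), and Otx2, a homeodomain transcription factor that the choroid plexus needs to form. Several also have other sources: Otx2 is expressed in the pineal gland and the retinal pigment epithelium, and Enpp2 in other cells of the brain and its coverings.

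Start-site sequences show what lies upstream of genes that followed Ttr across the stressed libraries (Kcne2, Kcnj13 and Kl) and of Otx2, whose relation to Ttr did not pass its test. The RefSeq promoter table of GRCm38.p6, the mm10 assembly, held 5 of the 10 genes (these 4 and Prlr) with 11 start sites in all. The last 120 bases before a start are printed 5′ to 3′ on the gene's strand, for the only listed start of Kcnj13 and Kl and for 1 of the listed starts of Kcne2 and Otx2. They lie at chr1:87394730-87394849 (Kcnj13, minus strand), chr5:150952487-150952606 (Kl, plus strand), chr16:92292269-92292388 (Kcne2, plus strand) and chr14:48667645-48667764 (Otx2, minus strand). A further line gives 26 bases at chr14:48665305-48665330, before another Otx2 start and inside an exon of GENCODE vM21. Capitals mark TATAAA, the TATA box, and TAATCC, the core bound by homeodomains of the OTX type, each searched on both strands.
Kcnj13: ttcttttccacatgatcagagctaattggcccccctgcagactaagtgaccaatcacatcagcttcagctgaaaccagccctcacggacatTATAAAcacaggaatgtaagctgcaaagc
Kl: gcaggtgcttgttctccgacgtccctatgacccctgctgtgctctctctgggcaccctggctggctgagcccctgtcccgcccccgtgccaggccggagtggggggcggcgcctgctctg
Kcne2: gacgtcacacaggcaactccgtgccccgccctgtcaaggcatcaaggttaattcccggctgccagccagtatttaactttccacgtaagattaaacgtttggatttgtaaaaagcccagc
Otx2: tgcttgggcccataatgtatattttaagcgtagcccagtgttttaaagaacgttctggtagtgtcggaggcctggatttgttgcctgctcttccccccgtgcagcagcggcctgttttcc
Otx2 upstream match: tgtgcccctcGGATTAtctcgttagt
TAATCC occurred in the 250 bases before 1 of the 11 starts, that of Otx2 whose match is shown, which begins 211 bases before it, against 6.25% of all 32851 promoters in the table. TATAAA occurred before 2 of the 11, that of Kcnj13 and the first printed start of Otx2, there further upstream than the bases shown, against 12.4% of all promoters. The counts are per gene and do not tell which start was used.

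The libraries held 807725 to 5136953 counts. Levels are given as CPM, counts scaled to a common library total. The unstressed libraries were counted on a RefSeq annotation and the stressed ones on Ensembl identifiers, so for every comparison with the unstressed group the stress and the annotation cannot be told apart. In the drug groups the drug cannot be separated from these either. The same holds for vehicle dosing, which the unstressed labels do not give. Ttr, Clic6 and Sostdc1 have almost identical exons in the 2 annotations. Kcnj13 differed most, with 647 exonic bases of its own in Ensembl and 3056 in RefSeq. Vehicle replicates 1 and 3 stood apart from the other libraries: they had a count for 10349 and 9525 genes, while the other 10 had one for 13468 to 17931. The defining genes of the labelled cell type were low beside the choroid plexus genes. The 10 monocyte markers summed to 126.1 to 1205 CPM, while the 10 choroid plexus genes summed to 12934 to 129034 CPM. The most abundant monocyte markers, Chil3 and F13a1, were 5.11 to 500.3 CPM and 0.552 to 323.0 CPM. Ly6c2 was 0 to 50.4 CPM and Ccr2 0.276 to 121.5 CPM.

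The choroid plexus genes took a large and uneven share of the reads. They held 1.56% to 4.06% of counts in the unstressed libraries, 1.29% to 12.9% with vehicle, 6.52% to 11.9% with psilocybin and 2.29% to 4.50% with MDMA. The Wilson 95% interval was 1.28% to 1.31% for the lowest library and 12.87% to 12.94% for the highest, and it covers counting error only. Both of these extremes were vehicle libraries, replicates 3 and 1. Ttr and Enpp2 alone made up 84.8% to 95.3% of the sum in every library. In bulk RNA, more cells of a type and more RNA per cell cannot be told apart.

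**Figure D1:**
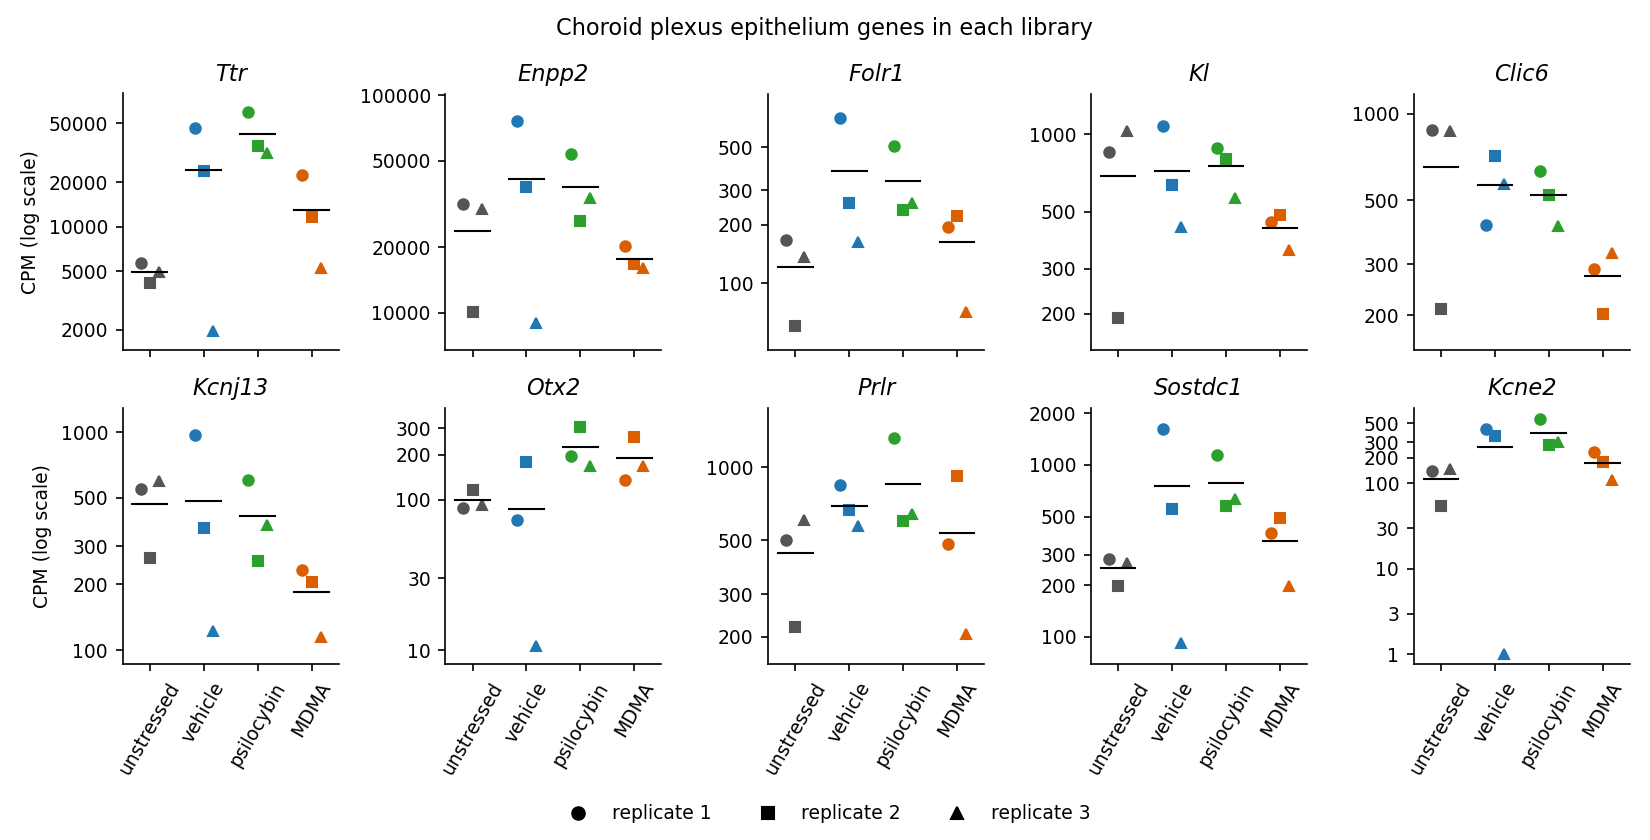
CPM of each gene (log axis, a separate range for each gene) in the 12 libraries; each symbol is a library, its shape the replicate number, and the line is the group mean. Psilocybin libraries sit above all MDMA libraries for 8 of the 10 genes, beside 7.76% of all tested genes. Vehicle replicate 3 is the lowest library of all for Ttr, Enpp2, Otx2, Sostdc1 and Kcne2.

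Ttr encodes transthyretin, the carrier of thyroxine and of retinol-binding protein that the choroid plexus secretes into cerebrospinal fluid (chromosome 18, 20665280 to 20674321, plus strand, GRCm38). It stood at 5650, 4166 and 4962 CPM in unstressed replicates 1, 2 and 3 and at 46587, 23819 and 1953 CPM with vehicle. With psilocybin it was 59666, 35164 and 31272 CPM, and with MDMA 22278, 11575 and 5267 CPM. The psilocybin libraries lay above all MDMA and all unstressed libraries, whereas vehicle spanned nearly the whole range, from below every other library to above all but 1. Group means were 42034 ± 15393 CPM for psilocybin, 24119 ± 22318 for vehicle, 13040 ± 8600 for MDMA and 4926 ± 743 for unstressed (SD, n = 3 each).

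No Ttr difference passed the edgeR quasi-likelihood test with Benjamini-Hochberg adjustment over all 13945 genes. The largest was psilocybin over unstressed, 3.12 ± 0.78 on the log2 scale (SE; 8.71-fold; adjusted p = 0.195). Vehicle over unstressed was 2.36 ± 0.76 (adjusted p = 0.101) and psilocybin over MDMA 1.76 ± 0.74 (3.39-fold; adjusted p = 1). Other settings ended differently for Ttr. By DESeq2 it was called against unstressed for vehicle (2.49 ± 0.83, adjusted p = 0.026) and for psilocybin (3.09 ± 0.83, adjusted p = 0.0162), where DESeq2 called 12.5% and 1.75% of all genes. Without vehicle replicate 3, edgeR called both (2.91 ± 0.58, adjusted p = 0.0176, and 3.14 ± 0.56, adjusted p = 0.0243), as against 6.68% and 0.813% of all genes, and so it did with no filter on low counts (adjusted p = 0.00694 and 0.000511; 1.36% and 0.222% of all genes).

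Enpp2 encodes autotaxin, a secreted enzyme that makes the signalling lipid lysophosphatidic acid (chromosome 15, 54838901 to 54952892, minus strand). Its unstressed values were 31541, 10119 and 30041 CPM, and its vehicle values 76328, 37769 and 9014 CPM. Psilocybin libraries had 53894, 26416 and 33568 CPM and MDMA libraries 20261, 16742 and 16036 CPM. The MDMA libraries were close together and all below the psilocybin libraries, but inside the range of both other groups. The fitted difference was 1.17 ± 0.59 for psilocybin over MDMA (edgeR adjusted p = 1) and -1.35 ± 0.59 for MDMA against vehicle (adjusted p = 0.258).

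Sostdc1 encodes a secreted antagonist of BMP and Wnt signalling (chromosome 12, 36314139 to 36318452, plus strand). It was narrow in unstressed libraries (284.5, 196.8 and 270.2 CPM) and wide with vehicle (1607, 550.9 and 92.1 CPM). Psilocybin libraries had 1147, 573.1 and 631.0 CPM and MDMA libraries 399.5, 488.9 and 196.4 CPM. As for Ttr, all psilocybin libraries stood above all MDMA and all unstressed libraries. Psilocybin over unstressed was 1.67 ± 0.72 (edgeR adjusted p = 0.722), and vehicle over unstressed 1.68 ± 0.72 (adjusted p = 0.226). The vehicle difference was 2.20 ± 0.56 without vehicle replicate 3 (adjusted p = 0.0393; 6.68% of all genes called), and the psilocybin difference 1.68 ± 0.36 in a fit of only the 6 libraries compared (adjusted p = 0.0282; 10.3% of all genes).

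Folr1 encodes folate receptor alpha, through which the choroid plexus passes folate to the brain. Its values were 167.2, 60.4 and 135.9 CPM unstressed, 707.5, 258.8 and 162.2 CPM with vehicle, 508.3, 236.4 and 257.7 CPM with psilocybin, and 194.8, 220.3 and 70.9 CPM with MDMA. Psilocybin was above MDMA in all libraries, and the lowest vehicle library lay just under the highest unstressed one. The vehicle group exceeded the unstressed group by 1.77 ± 0.66 (edgeR adjusted p = 0.157). Without vehicle replicate 2 it was 2.11 ± 0.71 and passed (edgeR adjusted p = 0.0486), in a fit that called 25.4% of all genes. Only vehicle replicates 1 and 3, the libraries with the fewest genes detected, made up the vehicle group in that fit. Folr1 is 2297 bases long in Ensembl and 1625 in RefSeq.

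Kl encodes klotho, the co-receptor for the hormone FGF23, which is also shed into cerebrospinal fluid. It was 849.1, 193.1 and 1029 CPM unstressed, 1079, 631.4 and 437.0 CPM with vehicle, 886.0, 799.8 and 565.8 CPM with psilocybin, and 456.7, 486.4 and 354.7 CPM with MDMA. The MDMA values lay under all psilocybin values and overlapped the rest. Psilocybin exceeded MDMA by 0.84 ± 0.55 (edgeR adjusted p = 1), and no Kl difference reached an unadjusted p of 0.05. Kl has 9328 exonic bases of its own in Ensembl and 5590 in RefSeq.

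Prlr encodes the prolactin receptor, which binds the hormone prolactin. Its values were 502.5, 218.3 and 606.5 CPM unstressed, 840.8, 667.3 and 571.1 CPM with vehicle, 1315, 602.6 and 643.5 CPM with psilocybin, and 480.8, 919.4 and 205.0 CPM with MDMA. Every pair of groups overlapped, and Prlr was the gene with the narrowest vehicle group, highest over lowest 1.47. Its largest difference was psilocybin over unstressed, 0.97 ± 0.59 (edgeR adjusted p = 0.944).

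Kcnj13 encodes the inward-rectifier potassium channel Kir7.1 of the apical membrane. It was 546.6, 264.4 and 594.5 CPM unstressed, 969.4, 365.2 and 121.8 CPM with vehicle, 605.6, 257.5 and 375.8 CPM with psilocybin, and 233.8, 205.3 and 114.5 CPM with MDMA. All MDMA libraries were below all unstressed and all psilocybin libraries. The MDMA difference was -1.54 ± 0.64 from vehicle (edgeR adjusted p = 0.231) and -1.38 ± 0.64 from unstressed (adjusted p = 0.989). The unstressed value rests on a gene model with more exonic bases, so its order against the other groups cannot be told apart from the annotation.

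Kcne2 encodes a small subunit that assembles with potassium channels such as KCNQ1 (chromosome 16, 92292389 to 92298129, plus strand). It was 138.0, 54.9 and 145.9 CPM unstressed, 433.2, 355.3 and 1.02 CPM with vehicle, 568.3, 280.2 and 301.8 CPM with psilocybin, and 230.7, 178.0 and 109.6 CPM with MDMA. Vehicle replicate 3 had 2 Kcne2 counts (exact 95% interval 0.124 to 3.70 CPM), far under every other library, while the psilocybin libraries were above all MDMA and all unstressed libraries. Psilocybin over unstressed was 1.78 ± 1.04 (edgeR adjusted p = 0.93) over the 12 libraries. In a fit of only those 6 libraries it was 1.79 ± 0.47 (adjusted p = 0.0477), where 10.3% of all genes were called. Without vehicle replicates 1 and 3 it was 1.81 ± 0.46 (adjusted p = 0.0449; 4.92% of all genes).

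Clic6, a member of the chloride intracellular channel family (chromosome 16, 92485736 to 92541243, plus strand), had its highest mean without stress. Its values were 879.9, 209.5 and 870.7 CPM unstressed, 409.5, 713.1 and 571.1 CPM with vehicle, 633.8, 520.8 and 408.7 CPM with psilocybin, and 290.2, 202.1 and 329.0 CPM with MDMA. The MDMA libraries were below all vehicle and all psilocybin libraries, and it was the only gene of the 10 whose vehicle and MDMA libraries did not overlap, against 1.87% of all genes with MDMA below vehicle. The MDMA difference was -1.28 ± 0.51 from vehicle (edgeR adjusted p = 0.208) and -1.33 ± 0.51 from unstressed (adjusted p = 0.693).

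Otx2 followed another order (chromosome 14, 48657677 to 48673819, minus strand). It was 88.5, 116.5 and 92.6 CPM unstressed, 73.1, 178.3 and 10.7 CPM with vehicle, 197.4, 307.5 and 167.2 CPM with psilocybin, and 136.2, 263.7 and 169.6 CPM with MDMA. Both drug groups lay above all unstressed libraries and overlapped each other, and vehicle replicate 1, the library with the most Enpp2, had the second lowest Otx2. Otx2 was the only gene of the 10 with a higher fitted value in MDMA than in vehicle, 1.14 ± 0.67 (edgeR adjusted p = 0.433). Psilocybin over vehicle was 1.40 ± 0.67 (adjusted p = 0.33). Without vehicle replicate 2 it was 2.16 ± 0.71 and passed (edgeR adjusted p = 0.0455), in a fit that called 24.5% of all genes. That fit left only vehicle replicates 1 and 3 in the vehicle group, the libraries with the fewest genes detected.

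Genes of the pineal gland, another tissue that expresses Otx2, varied widely over the same libraries. The sum of 10 pineal markers was 20.4 to 1979 CPM unstressed, 28.7 to 3774 with vehicle, 882.1 to 6510 with psilocybin and 1541 to 3046 with MDMA. By mean level the leading markers were Tph1, the enzyme that begins serotonin synthesis there, and Sag, a phototransduction arrestin. Asmt, which makes melatonin, was at 0 in vehicle and at most 1.75 CPM elsewhere. Over the 12 libraries, log2 Otx2 and the log2 pineal sum had Pearson r = 0.73 (permutation p = 0.0119, adjusted over 10 genes 0.119) and Spearman rho = 0.68 (p = 0.0177, adjusted 0.177). Without the 2 libraries farthest from the median pineal sum, unstressed replicate 3 and vehicle replicate 3, r was 0.58 and rho 0.53. Within the 9 stressed libraries r was 0.91 (exact permutation p = 0.0303, adjusted 0.303) and rho 0.60 (p = 0.0968, adjusted 0.968). That r rests on vehicle replicate 3, since without it both r and rho were 0.43 over the other 8 stressed libraries. This relation was examined after the values had been seen, and none of the 10 genes passed the adjustment. Retinal pigment epithelium markers summed to at most 65.6 CPM in any library. The most abundant, Best1 and Lrat, reached 33.9 and 37.8 CPM, and Rpe65 was 0 in every library but MDMA replicate 1 (0.28 CPM).

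**Figure D2:**
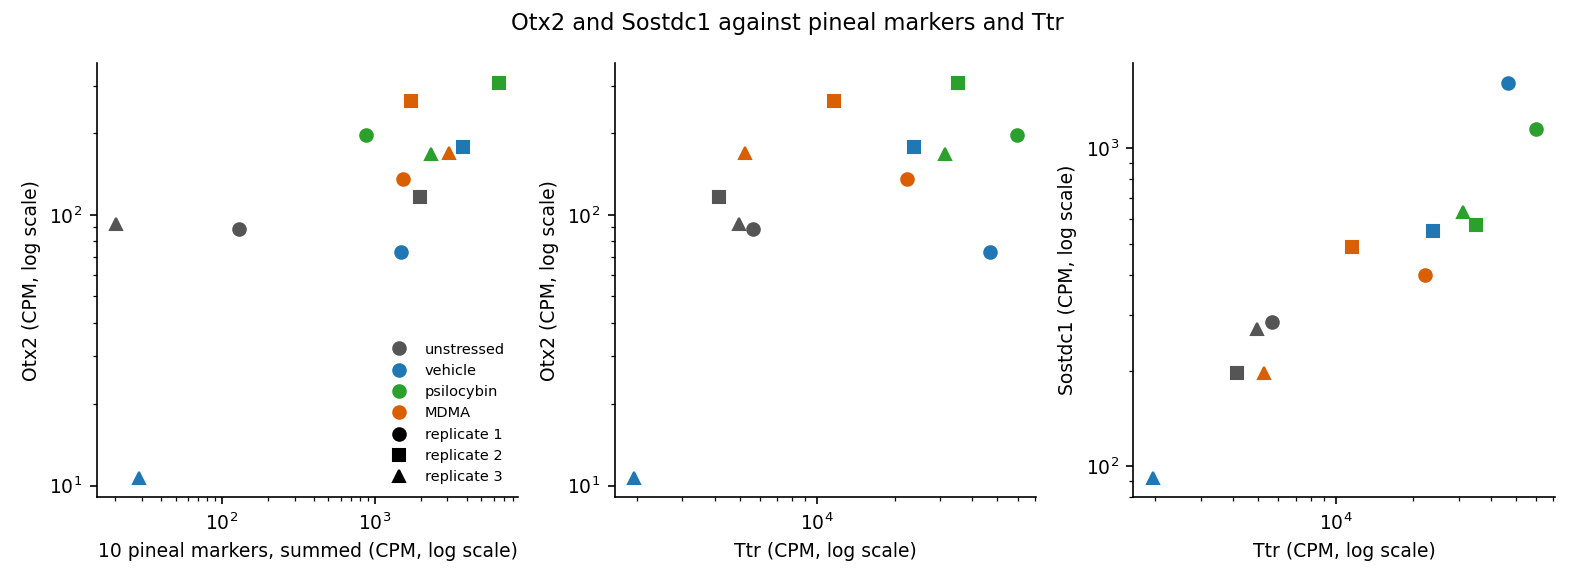
Left and centre, Otx2 against the summed pineal markers and against Ttr; right, Sostdc1 against Ttr (CPM, log axes; each symbol is a library, colour for group, shape for replicate). Sostdc1 lies along a line with Ttr (r = 0.94), while vehicle replicate 1 has high Ttr and low Otx2 and vehicle replicate 3 is low in all panels.

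Across the 6 comparisons of groups, which share their groups with each other, edgeR called none of the 10 genes. Over all genes it called 3.36% for vehicle against unstressed, 0.0143% for psilocybin against vehicle, 0.674% for MDMA against vehicle, 0% for psilocybin against MDMA and 0.0789% for each drug group against unstressed. In the test of any difference among the 4 groups it called 0.43% of genes and none of the 10, with Ttr nearest (adjusted p = 0.172). In the same order as the 6 comparisons, 3, 0, 3, 1, 3 and 2 of the 10 genes had an unadjusted p under 0.05, beside 18.5%, 15.9%, 16.7%, 0.581%, 6.32% and 4.96% of all genes. DESeq2 called Ttr in vehicle and in psilocybin against unstressed and no other of the 10, beside 12.5%, 7.61%, 9.59%, 0%, 1.75% and 1.56% of all genes. Limma voom called none, beside 10.1%, 3.15%, 6.38%, 0%, 0.825% and 1.02%.

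Psilocybin against MDMA gave all 10 genes the same sign. Fitted values were higher with psilocybin, by a log2 difference from 0.26 for Otx2 to 1.76 for Ttr, with a median of 1.12 against 0.02 over all genes. For 8 of the 10, all but Otx2 and Prlr, every psilocybin library was above every MDMA library, which held for 7.76% of all genes. The summed level was 65158 to 119422 CPM with psilocybin and 22852 to 44962 CPM with MDMA. Of 30 other choroid plexus genes, 28 were higher with psilocybin (median 0.90) and 19 did not overlap. These are counts, with no test of the list, and no single gene of the whole table passed in this comparison. The 10 genes and the 30 others were chosen with earlier results of these data known, so the 30 are no independent check.

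Other cell types moved with this pair of groups. Leptomeningeal fibroblast markers (10 genes) summed to 2105 to 4209 CPM with psilocybin and 6624 to 12820 CPM with MDMA, and the 10 monocyte markers to 127.6 to 497.9 and 371.0 to 1205 CPM. All 10 monocyte markers and 9 of 10 fibroblast markers had lower fitted values with psilocybin, none past the test, and all 10 of each list were detected in both groups. CPM are shares of a whole, so a larger share of one cell type lowers the others. What part the mixture of cell types has in the difference was not tested.

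**Figure D3:**
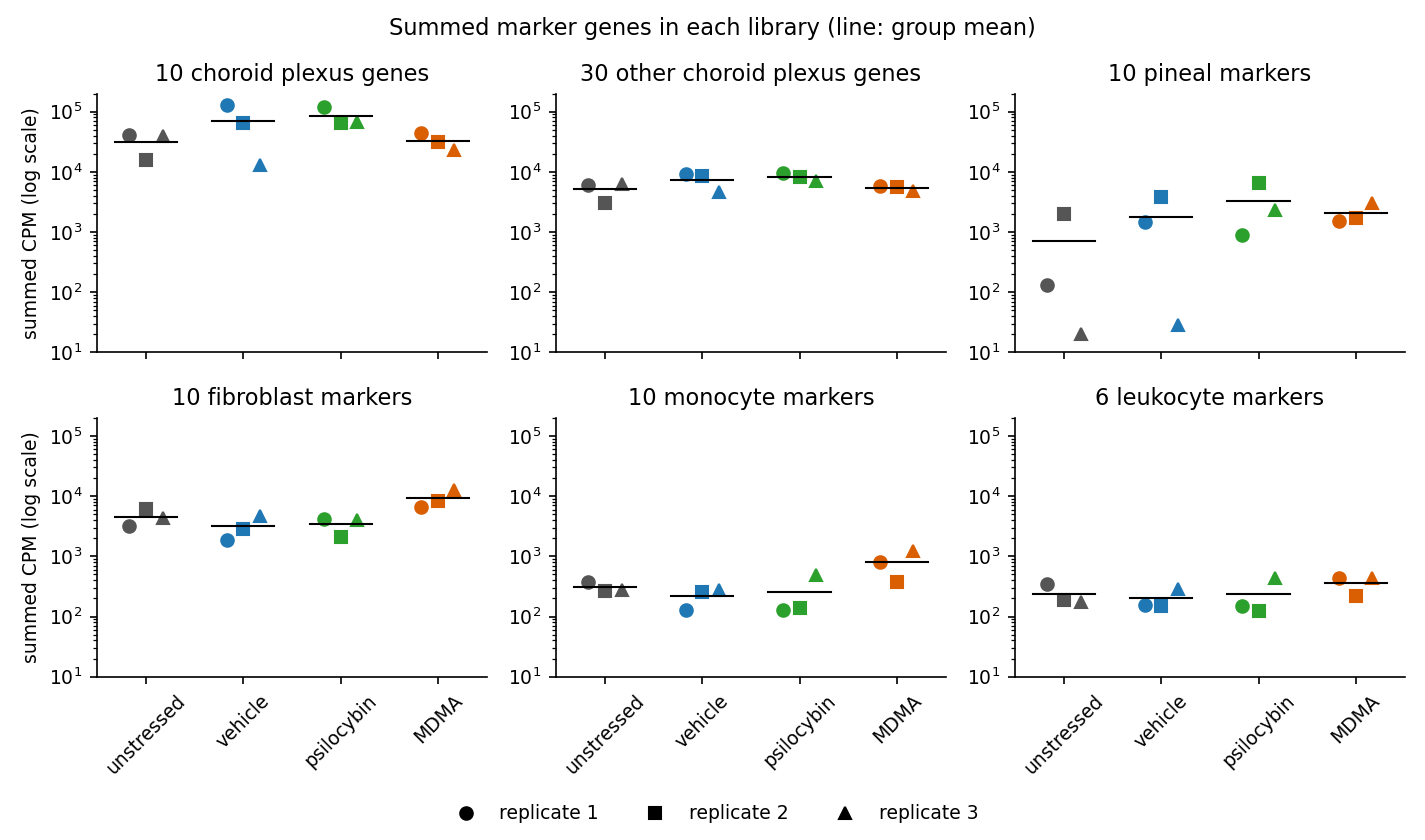
Summed CPM of 6 marker lists in each library (log axis; shape for replicate, line for group mean). The choroid plexus sum is higher in every psilocybin than in every MDMA library, and the fibroblast sum lower; monocyte markers are far below both.

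Neither drug group was set apart from vehicle for most of the genes. Psilocybin against vehicle gave a median of -0.03 over the 10 genes (all genes 0.31), with 4 higher and 6 lower, and none without overlap, beside 20.8% of all genes above and 2.62% below all vehicle libraries. MDMA against vehicle gave a median of -1.08 (all genes 0.24), with 9 lower and 1 higher, Otx2. Vehicle replicate 1 weighs heavily here: without it, Ttr went from -1.0 to 0.06 and Sostdc1 from -1.16 to 0.20 in MDMA against vehicle, and Sostdc1 was 1.36 in psilocybin against vehicle. The scaling also enters, since the median of all genes was 0.31 for psilocybin against vehicle with TMM and 0.12 with DESeq2's size factors, under which 3 and not 4 of the 10 were higher. MDMA against vehicle had 9 lower genes under both.

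Against unstressed libraries, the genes split. For vehicle, 8 of 10 had higher fitted values (median 0.84, all genes -0.18), and none was free of overlap, beside 2.77% of all genes above and 17.8% below all unstressed libraries. For psilocybin, 8 of 10 were higher (median 1.08, all genes 0.02), and Ttr, Folr1, Otx2, Sostdc1 and Kcne2 did not overlap, 5 of 10 genes beside 18.3% of all genes. For MDMA, 6 of 10 were higher (median 0.34, all genes 0.04), with Otx2 above all unstressed libraries (11.7% of genes) and Kcnj13 below them (10.7%). Gene lengths enter these orders. Per kilobase of exon, the order of group means turned for Kl and Otx2 with vehicle and for Kl and Kcnj13 with psilocybin. With MDMA it turned for Folr1 and Kcnj13, where mean Kcnj13 was 285.2 CPM against 153.3 unstressed. Mean Kl per kilobase was 123.5 CPM unstressed, 76.7 with vehicle and 80.5 with psilocybin. Clic6 had a lower fitted value with psilocybin (-0.32 ± 0.50) and with MDMA. With vehicle it was -0.05 ± 0.50 by TMM and 0.16 ± 0.51 with DESeq2's size factors. Restricting the fit to genes with nearly the same exons, which leaves Ttr, Clic6 and Sostdc1, called none of them.

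**Figure D4:**
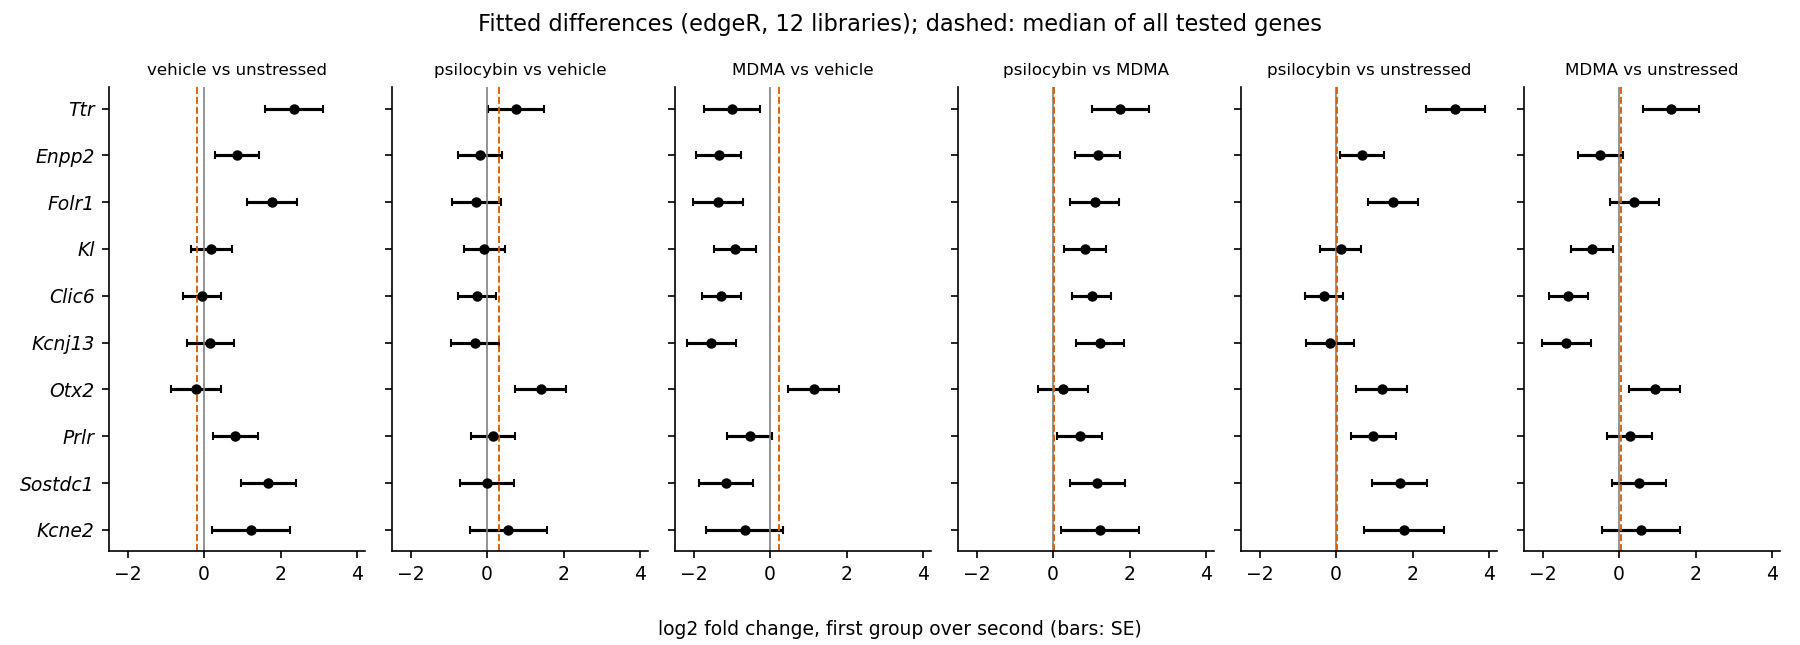
Fitted log2 differences of the 10 genes in 6 comparisons (points, first group over second; bars, SE; edgeR over 12 libraries); the dashed line is the median of all tested genes. In psilocybin against MDMA all 10 points lie above 0; in MDMA against vehicle all but Otx2 lie below.

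Ttr and Enpp2, the most abundant of the genes, did not keep a fixed ratio. Ttr counts per Enpp2 count were 0.179, 0.412 and 0.165 unstressed, 0.61, 0.631 and 0.217 with vehicle, 1.11, 1.33 and 0.932 with psilocybin, and 1.1, 0.691 and 0.328 with MDMA. All psilocybin ratios were above all vehicle and all unstressed ratios, and the highest MDMA ratio lay among them. The mean log2 ratio was -2.12 ± 0.73 unstressed, -1.20 ± 0.88 with vehicle, 0.15 ± 0.26 with psilocybin and -0.67 ± 0.88 with MDMA (SD, n = 3). No test of the ratio was run. The Enpp2 exons overlapped with a Jaccard index of 0.506 between the annotations, so the unstressed ratio is on another footing. Per kilobase of exon, mean Ttr was 35442 and mean Enpp2 6986 CPM with psilocybin, and 4071 and 4633 CPM unstressed, where Enpp2 was the highest of the 10 and Ttr next. Per kilobase Otx2 was lowest in every group but MDMA, where Prlr was.

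**Figure D5:**
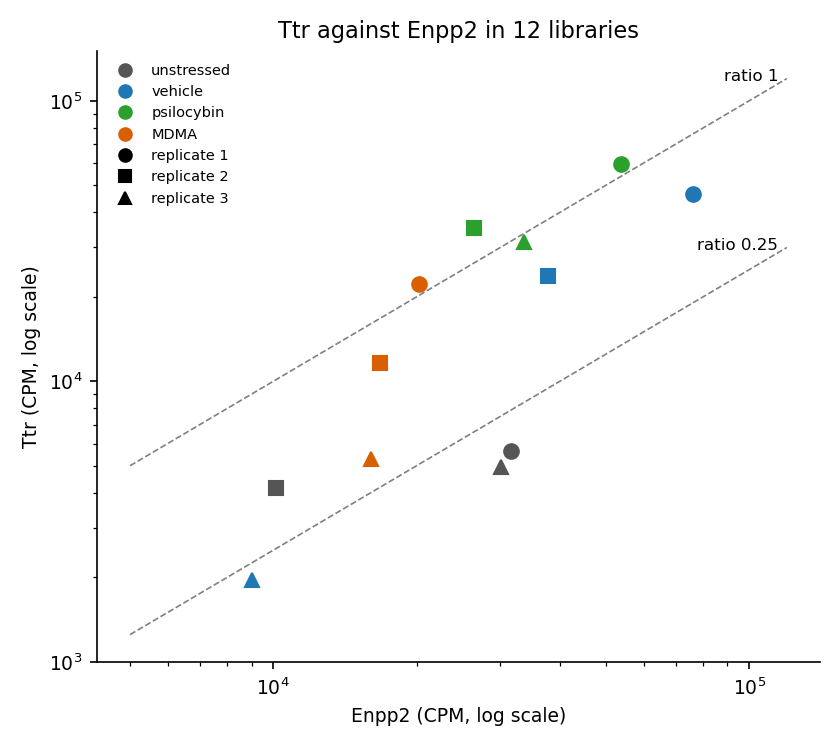
Ttr against Enpp2 CPM in 12 libraries (log axes; colour for group, shape for replicate); dashed lines mark equal counts and a Ttr to Enpp2 ratio of 0.25. Psilocybin libraries lie near the line of equal counts, and unstressed replicates 1 and 3 and vehicle replicate 3 lie below the lower line.

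Members varied together to different degrees. Over 12 libraries, log2(CPM + 1) of Sostdc1 followed that of Ttr most closely (Pearson r = 0.94, rho = 0.96), then Kcne2 (0.82, 0.95), Folr1 (0.79, 0.91) and Enpp2 (0.78, 0.80). Their permutation p-values adjusted over the 9 genes were 9e-05, 9e-05, 0.00402 and 0.00679 for r, and 0.00018, 0.00018, 0.00036 and 0.00576 for rho. The permutations moved libraries across groups and annotations, so differences between groups enter these p-values along with variation within groups. Without vehicle replicate 3 and unstressed replicate 2, the libraries farthest from the Ttr median, r was 0.90, 0.95, 0.85 and 0.61.

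The remaining genes were looser. Prlr (0.60) and Otx2 (0.59) both had an adjusted permutation p of 0.0596 for r, and rho was 0.64 (adjusted p = 0.0475) and 0.48 (0.137). Kcnj13 had r = 0.52 (adjusted p = 0.106), Kl 0.49 (0.118) and Clic6 0.02 (0.952). Within the 9 stressed libraries, which share 1 annotation, Kcnj13 and Kl passed (r = 0.86, exact permutation adjusted p = 0.00207, and r = 0.79, 0.00685), and Clic6 did not (0.17, 0.639). Without vehicle replicate 3, over the other 8 stressed libraries, r was 0.87 for Kcnj13, 0.88 for Kl, 0.59 for Clic6 and -0.21 for Otx2, which had 0.63 with it. Among all 45 pairs of the 10 genes, r had a median of 0.60. It was 0.64 over the 36 pairs without Otx2 and 0.14 over the 9 with it, of which Kcne2 was highest (0.82), a value of 0.21 without vehicle replicate 3. Differences between groups enter these p-values too, also within the stressed libraries. All these genes share libraries and depth.

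Outside the list, the genes whose pattern was most like the mean of the 10 were ranked by Pearson r over the 12 libraries among 11770 genes with a mean of at least 5 CPM. Tekt1, a tektin of ciliary microtubules, was first (r = 0.946), then Maob, monoamine oxidase B (0.936), Ppp1r1b, which encodes DARPP-32 (0.934), Capsl (0.927), Calml4 (0.922), the prohormone convertase Pcsk2 (0.921), Spaca9 (0.908) and Tmem72 (0.907). In the 9 stressed libraries, Rsph9, a component of ciliary radial spokes, was first (0.984), followed by Calml4 (0.973), Maob (0.961), Capsl (0.948), Tekt1 (0.948), Spaca9 (0.945), Defb11 (0.943) and Atp5g1 (0.942). Maob, Capsl, Calml4, Tekt1 and Spaca9 were in both rankings. These are descriptions, with no test.

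Other genes of this epithelium were not called either. Of 30 further choroid plexus genes, all tested, edgeR called none in any comparison. Their medians were 0.84 for vehicle against unstressed, 0.25 for psilocybin against vehicle, -0.67 for MDMA against vehicle, 0.90 for psilocybin against MDMA, 1.03 for psilocybin against unstressed and -0.05 for MDMA against unstressed. The most abundant were Cab39l and the cation channel gene Trpm3. Cab39l was 1203, 746.0 and 827.6 CPM with psilocybin and 536.3, 303.9 and 550.7 CPM with MDMA, without overlap (1.09 ± 0.46, edgeR adjusted p = 1). Trpm3 was 1224, 927.0 and 790.1 CPM with psilocybin and 655.2, 710.6 and 421.5 CPM with MDMA (0.76 ± 0.51, adjusted p = 1). For psilocybin against MDMA, 7 of 9 ciliated and ependymal genes could be tested, all 7 had higher fitted values and none was called. Foxj1, the master regulator of motile cilia, was 1.02 to 71.8 CPM over the 12 libraries, and Rsph1, a radial spoke gene, 14.3 to 87.6 CPM.

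Genes that act with the 10 as ligands, carriers, receptors or transducers gave calls only for vehicle against unstressed, where 3 of 19 tested were lower and none higher, beside 3.13% of all genes lower. Jak2, the kinase of the prolactin receptor, was 0, 0 and 6.14 CPM with vehicle and 85.8, 104.8 and 92.6 CPM unstressed (-5.02 ± 1.3, edgeR adjusted p = 0.0495). Kcnq1, a channel partner of Kcne2, had no count in any vehicle library and 58 counts over the unstressed libraries, at least 10.8-fold higher with a floor of 3 counts over the vehicle group (edgeR adjusted p = 0.0495). Lpar4, a receptor for lysophosphatidic acid, had 1 count against 166, a ratio of 92.5 (exact 95% counting interval 16.4 to 3674; adjusted p = 0.0495). In the other stressed groups Jak2 was 14.2 to 39.5 CPM, Kcnq1 1.05 to 7.01 CPM and Lpar4 1.4 to 21.9 CPM. The lowest of these Lpar4 values, in MDMA replicate 2, was close to the 1.24 CPM of vehicle replicate 2. Jak2 has 5030 exonic bases of its own in Ensembl and 10846 in RefSeq, and vehicle replicates 1 and 3 have the fewest genes detected. Fgf23, the hormone for klotho, was at most 0.384 CPM and was not tested.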

How the data were processed

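Bulk RNA sequencing of 12 libraries was used, 3 per group, with groups and replicate numbers from the sample titles. Per the labels' protocols, monocytes were isolated with a magnetic kit, and libraries were made from 5 ng of RNA. The authors deposited whole-number counts per gene. The submitters' processing notes name the mm10 build and, without roles, edgeR 3.42.4, featureCounts 2.0.1, STAR 2.7.5c, MultiQC 1.11, FastQC 0.11.9 and fastp 0.23.2. Unstressed libraries were counted over RefSeq exons without a strand or paired-end option, per the file headers; stressed libraries carry Ensembl identifiers, with counting settings not given in the sources used here. In addition, a whole-series table repeats 9 of the libraries, and 3 of its columns match no sample and were not used.

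Of 55401 Ensembl identifiers, 55141 had a symbol in GENCODE vM21 (GRCm38). They were joined to 35976 RefSeq genes by symbol at overlapping loci (26664) or by exon overlap (924, Jaccard index of at least 0.5). Between 94.8% and 99.1% of a library's counts fell in joined genes. Nearly the same exons means a Jaccard index of at least 0.9 and unshared length within 1.1 times; 7265 genes met this. Coordinates count from 1.

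Counts were scaled by TMM, filtered with filterByExpr and tested with edgeR 4.0.16 (quasi-likelihood, R 4.3.3) over all 12 libraries, with Benjamini-Hochberg adjustment at 0.05. Standard errors were derived from the test statistic. CPM in the text use unscaled totals. Correlations used log2(CPM + 1) and two-sided permutation tests, with 100000 permutations for 12 libraries and exact for 9. The permutations took no account of group. Alternatives were other scalings and filters, DESeq2 1.42.0, limma voom 3.58.1, a replicate block, fewer libraries and fewer genes. The fitting code was tested on simulated data. Its pass criteria covered a run at a fixed spread and not the run at the spread of these data. They do not tell how large a difference these data could detect. Same-numbered vehicle and psilocybin libraries deviated together weakly (correlations across genes of 0.112, 0.213 and 0.115). The main fits did not pair libraries, and the replicate number served only as a block among the alternatives. Its meaning is not given in the labels. No other comparison had 3 correlations over 0.1, but some single values were larger. Psilocybin against MDMA had 0.225, 0.0237 and 0.214, and psilocybin against unstressed 0.0854, 0.318 and -0.0259. These values do not settle whether the number pairs libraries. Genes were named by rule: all 10, list genes past the threshold or otherwise the 2 most abundant of a list, and the 8 most alike in pattern; list genes outside it (Asmt, Rpe65, Ly6c2, Ccr2, Fgf23) were chosen after their values were seen. The 10 genes and all lists were chosen with earlier results of these data known.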

Additional observations from a re-analysis of the deposited data

How the results depend on the processing

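The 10 genes stayed without a call in psilocybin against MDMA, MDMA against vehicle and MDMA against unstressed under every alternative run. Vehicle against unstressed gave 1 call with no filter and 1 by DESeq2 (Ttr both times), where 1.36% and 12.5% of all genes were called. For psilocybin against unstressed, these shares of all genes were 0.222% with no filter and 1.75% by DESeq2. Psilocybin against unstressed gave 1 with no filter and 1 by DESeq2 (Ttr), 4 with only the 6 libraries (Ttr, Sostdc1, Otx2, Kcne2; 10.3% of all genes called) and 3 without vehicle replicates 1 and 3, an alternative added after seeing the data (Ttr, Sostdc1, Kcne2; 4.92%). The test of any difference gave 1 with no filter (Ttr), and the share of all genes was not counted there. Leaving out 1 library at a time, the calls were 0 to 2 for vehicle against unstressed. They were Folr1 without vehicle replicate 2 (25.4% of all genes called) and Ttr and Sostdc1 without vehicle replicate 3 (6.68%). Psilocybin against vehicle gave 0 to 1 (Otx2 without vehicle replicate 2, 24.5% of all genes called). Without vehicle replicate 2, only vehicle replicates 1 and 3, with the fewest genes detected, remained in that group. Psilocybin against unstressed gave 0 to 1 (Ttr without vehicle replicate 3, 0.813% of all genes called). The test of any difference also gave 0 to 1 (Ttr without vehicle replicate 3), with the share of all genes not counted. With the replicate block no gene of the 10 was called in any comparison; it turned Clic6 to 0.08 and Kcnj13 to -0.14 (vehicle against unstressed) and Sostdc1 to 0.34 (psilocybin against vehicle).

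Per kilobase of exon the mean log2 ratio of Ttr to Enpp2 was -0.03 unstressed, 1.0 with vehicle, 2.35 with psilocybin and 1.53 with MDMA, a shift set by the gene lengths. The following differences changed sign, none of them past the threshold; the cause was not tested. In vehicle against unstressed, Clic6 became 0.16 with DESeq2's size factors and by DESeq2, 0.07 with library sizes without the 10 genes, 0.05 with no filter, 0.08 over genes with the same exons and 0.14 by limma voom. Without vehicle replicates 1 and 3, vehicle replicate 2 alone made up the vehicle group. In that fit Kl became -0.28, Kcnj13 -0.51 and Otx2 0.72 in vehicle against unstressed. In psilocybin against vehicle Enpp2 became 0.20, Folr1 0.57, Kl 0.43, Kcnj13 0.37 and Sostdc1 0.70. Prlr in psilocybin against vehicle became -0.07 (DESeq2's size factors and DESeq2) and -0.03 (limma voom), and Sostdc1 0.24 (limma voom). By limma voom, Kcne2 became 0.50 in MDMA against vehicle and Prlr -0.06 in MDMA against unstressed. Leaving out 1 library at a time, the ranges that crossed 0 were, for vehicle against unstressed, Enpp2 -0.04 to 1.32, Kl -0.23 to 0.68, Clic6 -0.42 to 0.30, Kcnj13 -0.90 to 0.59 and Otx2 -0.98 to 0.31. For psilocybin against vehicle they were Enpp2 -0.61 to 0.73, Folr1 -0.78 to 0.56, Kl -0.31 to 0.36, Kcnj13 -0.76 to 0.75, Prlr -0.35 to 0.37, Sostdc1 -0.51 to 1.36 and Kcne2 -0.03 to 1.29. For MDMA against vehicle they were Ttr -1.52 to 0.06, Sostdc1 -1.66 to 0.20 and Kcne2 -1.24 to 0.07. For psilocybin against MDMA, Otx2 ran from -0.08 to 0.66. For psilocybin against unstressed, Kl ran from -0.34 to 0.55 and Kcnj13 from -0.60 to 0.10, and for MDMA against unstressed Prlr from -0.48 to 0.79. Without the 2 farthest libraries, r with Ttr became -0.12 for Clic6, and r with the pineal sum -0.19 for Enpp2 and -0.08 for Folr1; in the 9 stressed libraries the latter became 0.23 for Kl and 0.28 for Kcnj13. The correlations without vehicle replicate 3 were also added after seeing the data. The smallest library, vehicle replicate 2 with 807725 counts, limits the precision of its low genes most.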

Other observations

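Kcne2 and Clic6 are near neighbours on chromosome 16 of GRCm38, with 187.6 kb between the end of Kcne2 and the start of Clic6, and both lie on the plus strand. Over the 12 libraries the Pearson r of their log2(CPM + 1) was 0.02. This value depends in part on vehicle replicate 3, with 1.02 CPM of Kcne2 and 571.1 CPM of Clic6. Without that library r was 0.37 over 11 libraries. Leaving out the unstressed libraries as well, which were counted on the other annotation, r was 0.68 over the 8 other stressed libraries. These are descriptions, with no test.

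Markers of other cell types were also measured, with no test of the sums. Myelin and Schwann cell markers (8 genes) summed to 616.2 to 5414 CPM with MDMA and to 1068 to 1463 CPM with psilocybin. Endothelial and mural markers (8 genes) summed to 2201 to 4028 CPM with psilocybin and 3049 to 3645 CPM with MDMA, and macrophage markers (10 genes) to 41.9 to 192.7 and 155.2 to 400.3 CPM. Neuron and astrocyte markers (8 genes) summed to 38.2 to 616.4 CPM unstressed, 20.5 to 942.2 with vehicle, 242.7 to 1326 with psilocybin and 568.2 to 775.2 with MDMA. The 6 leukocyte genes summed to 121.8 to 434.8 CPM over all libraries. The fibroblast marker Igf2, a growth factor, was called lower in vehicle than in unstressed libraries by edgeR (71 against 2851 counts). It was low in all stressed groups: 1.02 to 16.8 CPM with vehicle, 16.5 to 19.6 with psilocybin and 19.1 to 24.5 with MDMA. Unstressed libraries had 223.8 to 279.1 CPM. Igf2 has 2029 exonic bases of its own in Ensembl and 4890 in RefSeq, and stress and annotation cannot be told apart here.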
